A study of Mus musculus with 24 samples.

Results

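The effect of a conditional knockout of Prdm16 was compared between intermediate progenitors and radial glia sorted from the mouse cerebral cortex at E15.5, as a difference of differences: KO minus WT in TBR2+ cells, minus KO minus WT in PAX6+ cells. Libraries were placed by genotype and sorted population from their titles, which gave 16 of the 24 RNA-seq libraries of the series, 4 in each of 4 groups. PAX6+ cells are labelled radial glia and TBR2+ cells intermediate progenitors. TBR2 is the product of the gene Eomes. WT libraries carry the genotype Prdm16 flox/flox, and KO libraries carry Emx1Ires-Cre together with Prdm16flox/flox, so every group has the floxed alleles and only KO has Cre. The labels leave out the position of the loxP sites, the embryos or litters behind a library and any pooling of cells. Cre activity, a changed Emx1 locus and the loss of Prdm16 come together in KO, and their effects cannot be told apart.

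Radial glia line the ventricle of the developing cortex, divide there, and give rise to intermediate progenitors, which move to the subventricular zone and divide to form excitatory neurons. PRDM16 is a zinc finger regulator of transcription with a PR domain that is found in radial glia and is lost as cells pass to the neuronal lineage. The Emx1 locus is active in the dorsal telencephalic lineage, so its Cre acts before and in both populations. A gene whose response to the knockout is the same in both has an interaction of 0 on the log2 scale; a value below 0 means that the log2 fold change was lower in TBR2+ than in PAX6+ cells.

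The genes with a different response in the 2 populations included Bmper and Pdgfc, which moved in opposite directions, Gabra2, which rose in both by unequal amounts, and Sema6d, which passed the test in PAX6+ alone. Their promoters are shown so that the sequence next to each start site can be seen beside the response. Each line gives the 150 bases before the start site, 5′ to 3′ on the strand of the gene, from RefSeq (GRCm38.p6), and capitals mark a match to CANNTG, the E-box that bHLH factors bind. Bmper lies on chr9:23222926-23223075 (plus strand), Pdgfc on chr3:81036266-81036415 (plus), Gabra2 on chr5:71095850-71095999 (minus) and Sema6d on chr2:124089819-124089968 (plus).
Bmper: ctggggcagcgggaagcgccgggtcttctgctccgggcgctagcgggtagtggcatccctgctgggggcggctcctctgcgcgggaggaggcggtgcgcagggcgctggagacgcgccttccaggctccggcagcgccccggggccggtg
Pdgfc: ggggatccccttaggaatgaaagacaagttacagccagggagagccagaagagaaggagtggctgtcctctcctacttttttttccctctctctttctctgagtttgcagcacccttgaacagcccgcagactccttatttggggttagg
Gabra2: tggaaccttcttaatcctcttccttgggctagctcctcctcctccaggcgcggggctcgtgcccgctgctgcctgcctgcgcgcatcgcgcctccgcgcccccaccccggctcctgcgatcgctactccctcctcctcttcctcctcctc
Sema6d: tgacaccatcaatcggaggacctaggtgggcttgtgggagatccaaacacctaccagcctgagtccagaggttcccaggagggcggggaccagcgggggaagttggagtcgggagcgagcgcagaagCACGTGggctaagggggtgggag
Promoters were examined for 6 genes, these and Rgs17 and Tmem108, chosen after their values were seen from the 15 named genes whose RefSeq and GENCODE start sites coincide. Searched on both strands, CANNTG occurred once in Sema6d and once in Tmem108, as CACGTG in each, and in none of the other 4. Neither CAGATG, the form of the E-box bound by proneural factors and a special case of CANNTG, nor AAGATA, which holds the letters GATA, occurred in any of the 6. Over 32851 RefSeq promoter windows of the same length, 47.7% held CANNTG, 8.81% CAGATG and 4.65% AAGATA. A match is a description of the letters and not a binding site.

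Library totals ran from 6.402 to 12.55 M counts, and 1 read was worth 0.0634 to 0.196 CPM (counts scaled to the library total and by TMM over these 16 libraries). The 8 radial glia markers summed to 2920 to 3930 CPM in PAX6+ libraries and to 455 to 752 in TBR2+ libraries, and the 6 intermediate progenitor markers to 296 to 470 and 1370 to 1900 CPM, as the labels say. The 4 neuronal markers (Tubb3, Dcx, Stmn2, Map2) summed to 321 to 390 CPM in PAX6+ and to 3230 to 4640 in TBR2+, and Pax6 was present in both. Lum, which marks meninges, was at 0 in all 16 libraries, and the summed markers of microglia, choroid plexus and meninges stayed at or under 3.54 CPM in each. Those of Cajal-Retzius cells were the highest of the other types, reaching 282 CPM in PAX6+ and 506 in TBR2+. Those of mural cells reached 23 CPM, of erythroid cells 22.4, of interneurons 21.6 and of endothelial cells 9.08. Most of the erythroid sum was Alas2, with group means of 13.2 to 16.5 CPM. The mitochondrial share of a library was 14.42% to 20.2% in WT PAX6+, 11.27% to 23.98% in KO PAX6+, 24.75% to 33.09% in WT TBR2+ and 30.52% to 39.27% in KO TBR2+. Library names carry a different prefix for each population, so handling cannot be told apart from population. The part of the neuronal RNA, of the mitochondrial share and of handling in the results below was not tested, apart from a fit without mitochondrially encoded genes.

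Prdm16 itself, on chromosome 4 (154316125 to 154636873, minus strand, GRCm38), was at 274, 250, 292 and 215 CPM in the WT PAX6+ libraries, in replicate order, and at 227, 187, 186 and 164 in KO PAX6+. In TBR2+ it was at 52.4, 48.1, 83.4 and 48.5 CPM in WT and at 63.3, 51.3, 59.5 and 43.3 in KO. The genotypes overlapped in both populations. The log2 fold change was -0.43 (SE 0.15) in PAX6+ and -0.09 (SE 0.16) in TBR2+, and neither these nor their difference of 0.34 (SE 0.22, adjusted p = 0.901) passed the test. Without knowing the deleted exons, counts over the whole gene check the genotype labels only in part. Emx1, the locus that carries Cre, had log2 fold changes of -0.36 and -0.24, and Pax6, by which PAX6+ cells are known, -0.04 and -0.07. None of these passed the test, and their interactions were 0.13 (SE 0.20) and -0.03 (SE 0.21).

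Of 14548 genes tested, 89 (0.612%) had a response to the knockout that differed between the populations at an adjusted p under 0.05 (edgeR quasi-likelihood F test, Benjamini-Hochberg over all genes tested). In 31 (0.213%) the log2 fold change was higher in TBR2+, and in 58 (0.399%) it was lower. The differences called ran from 0.50 to 4.72 in size on the log2 scale, with a median of 1.27, and 82 of the 89 genes are protein coding. The adjusted p nearest the threshold was 0.0493 inside and 0.0539 outside it. The count and the split rested in part on 1 library and on the method: without KO TBR2+ replicate 1 there were 137 genes, 67 higher and 70 lower, of which 86 were among the 89. DESeq2 gave 160 (64 higher, 96 lower), and a fit without a filter on low counts 329 (203 higher, 126 lower). With the replicate number as a block within each population there were 323, and the split turned to 175 higher and 148 lower.

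The genotype effect passed the test in more genes in PAX6+ than in TBR2+: 496 genes (3.41%), 330 of them higher in KO (2.27%) and 166 lower (1.14%), against 262 (1.8%), with 172 higher (1.18%) and 90 lower (0.619%). The TBR2+ count ran from 123 (without WT replicate 3) to 423 (without KO replicate 1), and it also moved by over 1.5 times when WT replicate 1 (160), or replicate 3 (171) or 4 (162) of KO, was left out. The replicate block gave 894 genes in PAX6+ and 735 in TBR2+. That the number of calls is larger in PAX6+ has no test of its own. Sorted by these 2 tests, 59 of the 89 interaction genes were called in PAX6+ alone, 16 in TBR2+ alone, 12 in both and 2 in neither. KO and WT did not overlap in 74 of the 89 in PAX6+ (8.55% of all genes tested) and in 37 in TBR2+ (6.52%). Without KO TBR2+ replicate 1, the classes held 69, 40, 15 and 13 genes. A call in 1 population alone was seldom an interaction. Of 406 genes called in PAX6+ alone, 347 had no interaction call, nor had 156 of the 172 called in TBR2+ alone. Of 90 genes called in both populations, 87 moved the same way, 64 up and 23 down, and 78 of these had no interaction call.

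**Figure D1:**
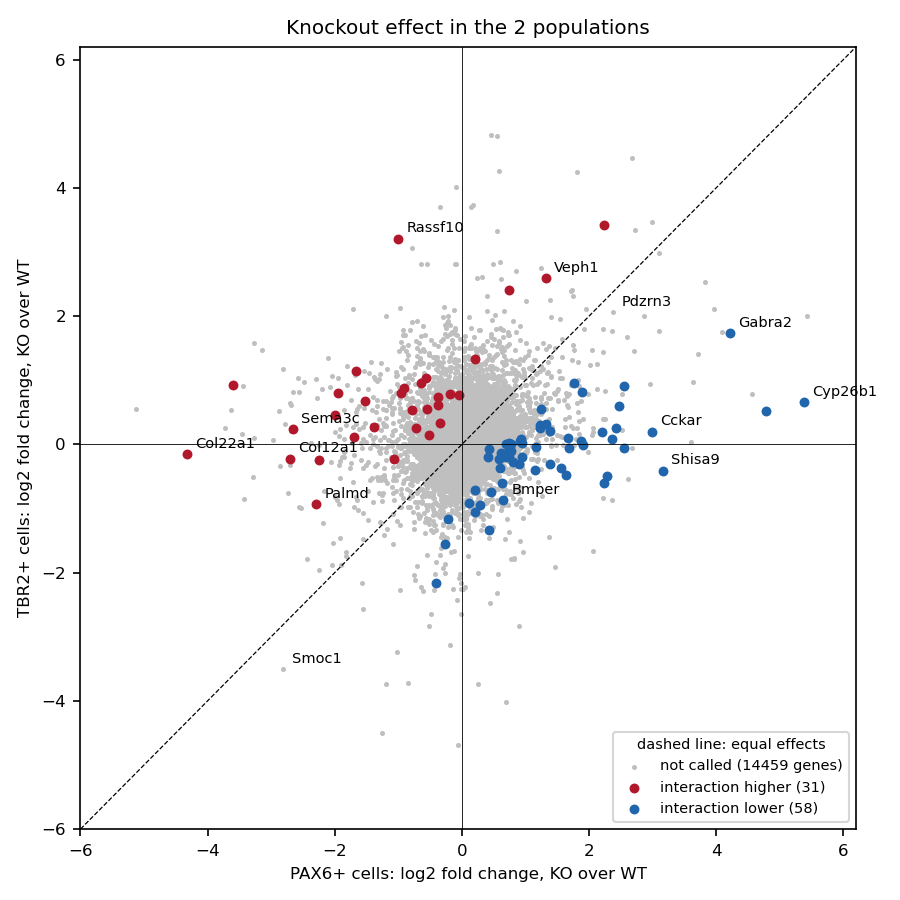
Log2 fold change of KO over WT in PAX6+ cells (x axis) and TBR2+ cells (y axis) for each of the 14548 genes tested; the 31 genes with a higher interaction are red, the 58 with a lower one blue, and the dashed line marks equal effects. Cyp26b1, Shisa9 and Cckar lie far to the right near the horizontal axis, Col22a1, Col12a1 and Sema3c far to the left of it, and Pdzrn3 close to the dashed line.

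The largest class held 42 genes that rose in PAX6+ cells and were not called in TBR2+. Their median log2 fold change was 1.23 in PAX6+ (0.41 to 5.38) and -0.04 in TBR2+ (-0.60 to 0.66), and the median over all genes tested was -0.007 and 0.003. Genes for ion channels, receptors, guidance molecules and adhesion molecules were among them. Shisa9, which encodes an auxiliary subunit of AMPA-type glutamate receptors, shared the smallest adjusted p with Ddhd1 of the same class and with Akap12, a gene called in TBR2+ alone. It was at 10.3, 9.91, 8.76 and 7.4 CPM in WT PAX6+ and at 96.5, 58.5, 86.3 and 84.3 in KO PAX6+. TBR2+ libraries held 12.4, 10.6, 21.4 and 15.7 CPM in WT and 4.41, 10.4, 17.1 and 13.5 in KO. The genotypes were far apart in PAX6+ and overlapped in TBR2+. Log2 fold changes were 3.16 (SE 0.25) and -0.41 (SE 0.28), a difference of -3.57 (SE 0.37, adjusted p = 2.577e-05).

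Cyp26b1, which encodes an enzyme that degrades retinoic acid, had the largest difference among the named genes. It was nearly absent from WT PAX6+ libraries, at 0.448, 0.632, 0.127 and 0.208 CPM, and stood at 18.2, 11.3, 15.7 and 16.4 in KO PAX6+. The WT PAX6+ values rest on few reads each. The level in TBR2+ was 0.478, 2.56, 1.16 and 5.58 CPM in WT and 3.15, 5.64, 3.93 and 2.9 in KO, where the genotypes overlapped. The log2 fold change was 5.38 (SE 0.48) in PAX6+ and 0.66 (SE 0.45) in TBR2+, a difference of -4.72 (SE 0.69, adjusted p = 0.0006462). In WT the gene was higher in TBR2+ than in PAX6+ (log2 2.74), and in KO it was lower (-1.98). Of the 11 tested genes of a retinoic acid list, Cyp26b1 was the only interaction call. The gene lists used here and below were written with earlier results of these data known. Their calls are therefore not set against the share of all genes. Dhrs3, for a retinal reductase, rose in PAX6+ (1.75), and its interaction of -0.20 did not pass.

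Receptors and channels in the same class included Cckar, for the cholecystokinin A receptor, with log2 fold changes of 2.99 in PAX6+ and 0.20 in TBR2+ (difference -2.79, SE 0.43). Kcna2, for a voltage-gated potassium channel, had 2.55 and -0.05 (difference -2.60, SE 0.55). Its KO PAX6+ libraries stood at 4.06, 3.24, 10.4 and 3.84 CPM, with replicate 3 high, against 0.444 to 1.67 in WT PAX6+. The call of Kcna2 was lost in 5 of the 16 fits that left out a library, with an adjusted p of up to 0.06709. Tmem35a, for a chaperone of nicotinic acetylcholine receptors, had 2.21 and 0.19 (difference -2.02), and Gfra1, for a receptor of GDNF, 1.91 and -0.01 (-1.93). Rgs17, for a regulator of G-protein signalling, had 2.42 and 0.25 (-2.17), and Myo1d, for an unconventional myosin, 2.37 and 0.09 (-2.28). Both were above WT in every KO PAX6+ library and overlapped between genotypes in TBR2+.

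Several named genes of the class were far more abundant in TBR2+ than in PAX6+ cells of WT. Epha3, for an ephrin receptor, was at 7.79, 10.1, 12.3 and 6.88 CPM in WT PAX6+ and at 35.3, 27.5, 32.7 and 24.6 in KO PAX6+, against 399 to 496 in WT TBR2+ and 440 to 493 in KO TBR2+. Its KO PAX6+ libraries lay above all WT PAX6+ libraries and far below all TBR2+ libraries. The log2 fold changes were 1.67 and 0.10 (difference -1.57, SE 0.20, adjusted p = 0.0001725). Sema6d, for a transmembrane semaphorin, was at 20.8, 24.4, 30.7 and 17.3 CPM in WT PAX6+ and at 151, 92.2, 165 and 115 in KO PAX6+. In TBR2+ it was at 256, 359, 339 and 392 CPM in WT and at 403, 595, 529 and 518 in KO. The genotypes did not overlap in either population, and only the PAX6+ change passed (2.48, SE 0.19, against 0.60, SE 0.17, adjusted p = 0.09536 in TBR2+; difference -1.87, SE 0.25). Cdh8, for a type II cadherin, had 1.64 and -0.48 (difference -2.12, SE 0.26), and Ust, which encodes a sulfotransferase of chondroitin and dermatan sulfate, 1.56 and -0.36 (-1.92, SE 0.22). Rnd2, for a small GTPase with a role in the migration of cortical neurons, had 0.95 and 0.03 (difference -0.92, SE 0.21). Its call was lost in 12 of the 16 fits that left out a library, with an adjusted p of up to 0.1013. The call was also lost in limma (adjusted p = 0.08585) and with all 24 libraries (0.2442).

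The sign of the difference depended on the scale in some of the interaction genes. On a linear scale, chosen after the data were seen, the difference of differences of mean CPM had the same sign as the log2 interaction in 80 of the 89 genes and the opposite sign in 9. For Sema6d, which is more abundant in TBR2+, the gain in CPM was 67.3 larger (SE 52.2) in TBR2+ than in PAX6+, while the fold change was smaller. Epha3 (9.07, SE 25.8), Cckar (2.74, SE 8.96) and Atcay (6.39, SE 9.28) had the same signs. Their linear values were smaller than their SE, and that of Sema6d was little above its SE. A reversal is therefore not shown for any of these genes, Sema6d included. Veph1 (-85.6, SE 15), Ptx3 (-69.6, SE 14.9), Ccser1 (-23.8, SE 11.9), Palmd (-15.9, SE 7.76) and Daam2 (-13.4, SE 5.72) had a higher log2 fold change in TBR2+ and a lower change in CPM. The linear values have no test.

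**Figure D2:**
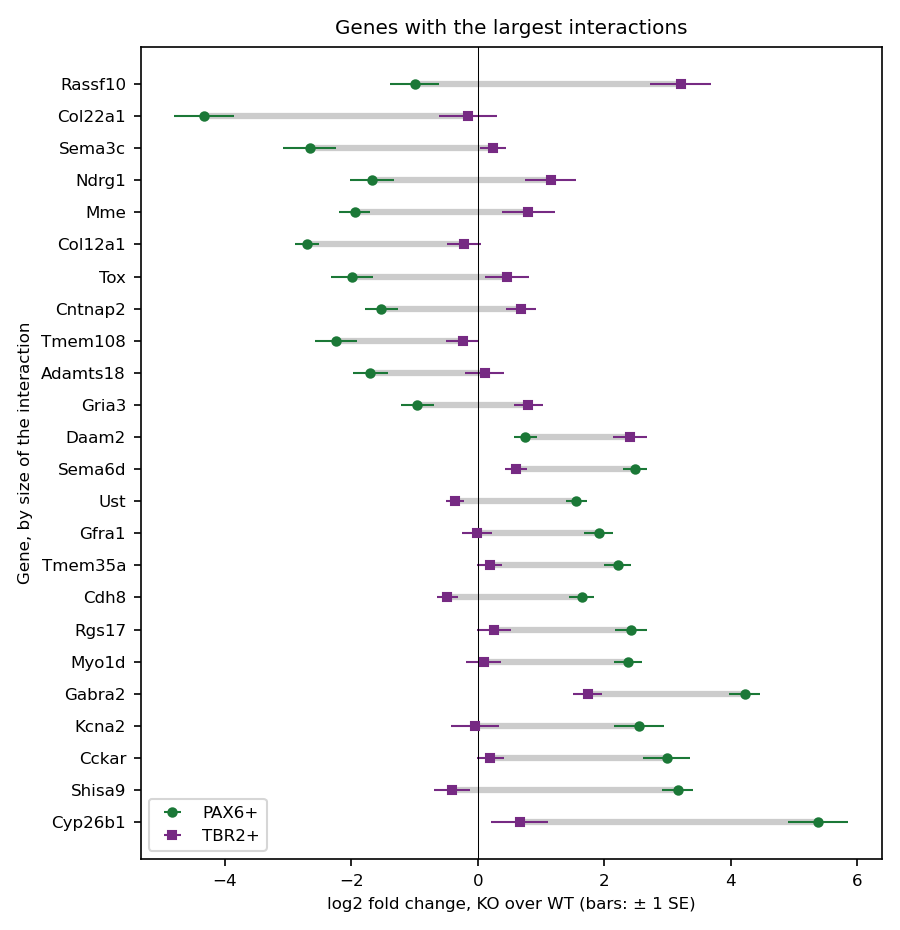
Log2 fold change of KO over WT, with bars of 1 SE, in PAX6+ (circles) and TBR2+ cells (squares) for the 12 named genes with the largest interactions in each direction. In most lower interactions the PAX6+ point lies far from 0 and the TBR2+ point near it; Gabra2 is above 0 in both (4.22 and 1.74).

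The 42 genes were also described across populations, with contrasts that share all libraries with the interaction and so add no support to it. In WT, where 59.8% of all genes tested differed between the populations, 38 of them were higher in TBR2+ than in PAX6+ (29.8% of all genes tested), none was lower (30%) and 4 were not called. The median log2 difference was 2.07. In KO, where 58.9% of all genes differed, 28 were higher (29.4%), 9 lower (29.5%) and 5 not called, with a median of 0.86. The mean of KO PAX6+ exceeded that of WT TBR2+ in 13 of the 42, while WT PAX6+ exceeded it in 2. Most of the genes therefore had more RNA in TBR2+ in either genotype, by a smaller margin in KO, and Shisa9, Cyp26b1, Myo1d, Rgs17 and Gfra1 were among those called lower in TBR2+ in KO.

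**Figure D3:**
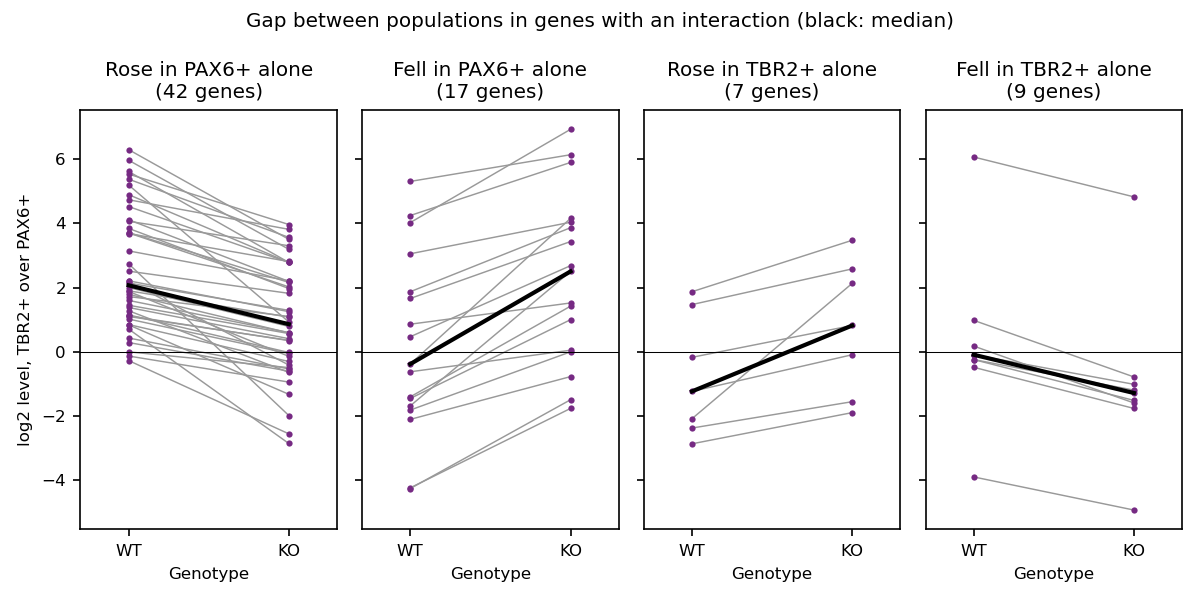
Log2 level in TBR2+ over PAX6+ cells (y axis) in WT and KO for each interaction gene called in 1 population alone, as lines joining the genotypes, with the median in black; panels hold 42, 17, 7 and 9 genes. The median falls from 2.07 to 0.86 in the first panel and rises from -0.38 to 2.50 in the second.

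In the reverse direction, 17 genes fell in PAX6+ and were not called in TBR2+, with medians of -1.67 and 0.27. Col12a1, for a fibril-associated collagen, was at 111, 87.1, 181 and 130 CPM in WT PAX6+ and at 18.3, 16.1, 21.6 and 22.6 in KO PAX6+. TBR2+ libraries held 5.1, 7.85, 5.2 and 8.96 CPM in WT and 5.82, 4.62, 7.46 and 5.48 in KO, lower than any PAX6+ library and overlapping between genotypes. Log2 fold changes were -2.70 (SE 0.19) in PAX6+ and -0.22 (SE 0.27) in TBR2+, a difference of 2.47 (SE 0.33, adjusted p = 0.0003046). Col22a1, also for a collagen, was at 6, 3.37, 10.7 and 4.06 CPM in WT PAX6+ and at 0.208, 0.395, 0.447 and 0.0872 in KO PAX6+. The KO PAX6+ values rest on few reads each. Col22a1 stayed between 1.18 and 3.03 CPM in all TBR2+ libraries. Its log2 fold changes were -4.33 and -0.15 (difference 4.18, SE 0.67, adjusted p = 0.001584). These were the only interaction calls among 20 tested genes of an extracellular matrix list.

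Sema3c, which encodes a secreted semaphorin, was at 2.96, 1.34, 4.38 and 2.81 CPM in WT PAX6+ and at 0.521, 0.316, 0.447 and 0.523 in KO PAX6+. It was far more abundant in TBR2+, at 34.4, 41.6, 58.8 and 53.6 CPM in WT and at 36.4, 63.3, 61.1 and 62.3 in KO. The genotypes were separate in PAX6+, where the KO values rest on few reads each, and overlapped in TBR2+. The log2 fold changes were -2.66 and 0.24 (difference 2.90, SE 0.47, adjusted p = 0.001908). The call was lost in limma with voom (2.72, adjusted p = 0.1023). In bulk RNA of sorted cells, a loss of RNA per cell and fewer cells that carry the transcript cannot be told apart, and Eomes, by which TBR2+ cells are known, also fell in PAX6+ (79.2 to 47.3 CPM, log2 -0.75, adjusted p = 0.009151). In TBR2+ cells Eomes was at 972 CPM in WT and 910 in KO (log2 -0.09), and its interaction of 0.65 (SE 0.23) did not pass (adjusted p = 0.3549). It passed without a filter on low counts (adjusted p = 0.006419) and with the replicate block (0.007126). Of 15 genes on the intermediate progenitor list, Eomes, Insm1, Elavl4 and Rhbdl3 fell in PAX6+ (1.14% of all genes tested) and no other was called there. Of 17 pan-neuronal genes, Dcx fell in PAX6+ (log2 -1.01, adjusted p = 0.00246) and Stmn4 rose (0.95). The part of Eomes-positive cells among the PAX6+ cells in these values was not tested.

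The largest difference of the class, 4.53 for Ppp1r1b, which encodes the phosphatase inhibitor DARPP-32, came from a gene under 5 CPM in every group, like that of Plcxd3 (-4.26) in the opposite class. The other named genes of the class encode proteins of several kinds. Mme, for the membrane peptidase neprilysin, had log2 fold changes of -1.95 and 0.80 (difference 2.75; not called in limma, adjusted p = 0.074, or with all 24 libraries, 0.05716), and Ndrg1 had -1.67 and 1.15 (2.81). Tox, for an HMG-box protein, had -1.99 and 0.46 (2.45), and Cntnap2, for a neuronal cell adhesion protein of the neurexin superfamily, -1.53 and 0.68 (2.22). Gria3, for an AMPA receptor subunit, had -0.96 and 0.80 (1.76, SE 0.35). In each of these 5 genes the PAX6+ fall passed the test and the TBR2+ value, above 0, did not. In all 5, replicate 4 was the highest KO TBR2+ library, as in Tox (30 CPM, others 5.35 to 17.7) and Gria3 (93.7, others 36.7 to 51.9). In WT TBR2+, replicate 4 was also the highest for all of them but Ndrg1. Their interaction calls stayed when any library was left out. Tmem108 had -2.24 and -0.24 (1.99) and Adamts18, for a secreted metalloprotease, -1.70 and 0.11 (1.81). Adamts18 was the least stable named gene: its call was lost in 12 of the 16 fits without a library, with an adjusted p of up to 0.1201, and in 5 of 9 other fits. Without KO TBR2+ replicate 4 (30.6 CPM, others 7.56 to 12.8) its difference was 1.21. Tmem108 lost its call in 5 of the 16, with an adjusted p of up to 0.06898.

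**Figure D4:**
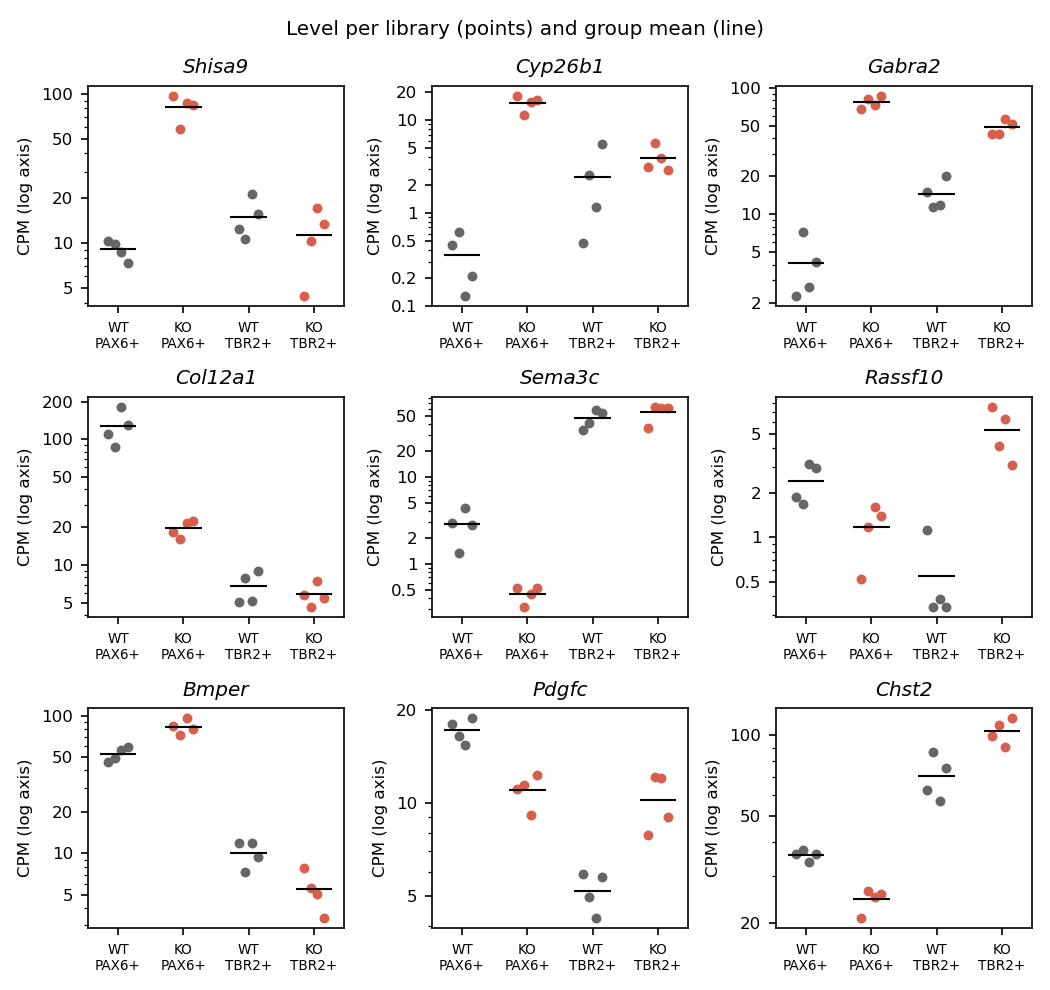
CPM per library on a log axis (points; grey WT, red KO) with the group mean (line) for 9 interaction genes, chosen after their values were seen. For Shisa9, Cyp26b1, Col12a1 and Sema3c the genotypes separate in PAX6+ alone; Bmper, Pdgfc and Chst2 move in opposite directions in the 2 populations.

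Among the 16 genes called in TBR2+ alone, 7 rose and 9 fell. Rassf10, which encodes a protein of the RASSF family, had the largest difference of them. It was at 1.88, 1.69, 3.11 and 2.92 CPM in WT PAX6+ and at 0.521, 1.18, 1.61 and 1.4 in KO PAX6+. The level in TBR2+ was 1.12, 0.341, 0.385 and 0.338 CPM in WT and 7.56, 4.1, 6.29 and 3.06 in KO. All KO TBR2+ libraries lay above all WT TBR2+ libraries, and in PAX6+ the order was the other way, also without overlap. Only the TBR2+ change passed (3.21, SE 0.48, adjusted p = 0.0003667, against an adjusted p of 0.2278 in PAX6+), and the difference was 4.21 (SE 0.62, adjusted p = 0.000685). The 3 WT TBR2+ values from 0.338 to 0.385 CPM rest on few reads each.

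Kif26b, a kinesin family gene on the intermediate progenitor list, was at 254, 240, 217 and 227 CPM in WT TBR2+ and at 159, 104, 113 and 108 in KO TBR2+, against 2.29 to 4.58 CPM over all PAX6+ libraries. The TBR2+ genotypes did not overlap, and KO replicate 1 was the closest to WT. The log2 fold change was -0.95 (SE 0.14) in TBR2+ and 0.29 (SE 0.20) in PAX6+, a difference of -1.24 (SE 0.24, adjusted p = 0.0119). Nrarp, a target and feedback inhibitor of Notch signalling, was present at like levels in both WT populations, at 55.2, 57.5, 63.8 and 52 CPM in PAX6+ and at 48.3, 38.9, 57.6 and 49 in TBR2+. In KO it was at 45.5, 53.4, 51.3 and 47.6 CPM in PAX6+ and at 21.4, 25.3, 21.2 and 18.8 in TBR2+, so that KO TBR2+ stood apart from the other 3 groups. Log2 fold changes were -1.16 (SE 0.13) in TBR2+ and -0.21 (SE 0.12) in PAX6+, a difference of -0.95 (SE 0.18, adjusted p = 0.007643). Of 17 tested genes on the Notch list, Nrarp was the only interaction call, and the median interaction of the list was 0.11.

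The other genes that fell in TBR2+ alone were Akap12 (interaction -1.77), Pbx3 (-1.76), Hmcn1 (-1.29), Rasa3 (-1.27), Zfhx4 (-1.20), Adgrv1 (-1.02) and Cdk6 (-0.92). Akap12, for a scaffold of protein kinase A, had means of 62.9 CPM in WT and 24.9 in KO TBR2+, and of 55.4 and 74.9 in PAX6+. Pbx3 and Zfhx4 encode homeobox proteins and Cdk6 a kinase that drives entry into the cell cycle. Those that rose in TBR2+ alone were Sypl2 (1.61), Slc35f1 (1.14), Crim1 (1.11), Slc44a1 (0.99), Fras1 (0.98) and Tle1 (0.82), of which Tle1 encodes a Groucho family corepressor and Fras1 a basement membrane protein. In the 16 genes the median log2 fold change was 0.78 in TBR2+ and -0.37 in PAX6+ for those that rose, and -1.06 and 0.21 for those that fell.

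Of the 89 interaction genes, 3 were called in both populations in opposite directions. This count depended on the setting: it was 7 in DESeq2, 22 with the replicate block and 25 without a filter on low counts. It ran from 1 to 6 when a library was left out. Bmper, which encodes a secreted BMP-binding protein, was at 45.8, 49.1, 56.5 and 59.5 CPM in WT PAX6+ and at 84.3, 72, 95.9 and 79.5 in KO PAX6+. In TBR2+ it was at 11.8, 7.34, 11.9 and 9.47 CPM in WT and at 7.87, 5.64, 5.11 and 3.38 in KO. The PAX6+ genotypes did not overlap; in TBR2+ the highest KO library lay above the lowest WT library. It rose by 0.65 (SE 0.15, adjusted p = 0.01289) and fell by 0.87 (SE 0.22, adjusted p = 0.03613) on the log2 scale, a difference of -1.53 (SE 0.26, adjusted p = 0.003495).

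Pdgfc, for a growth factor of the PDGF family, was at 18, 16.5, 15.4 and 18.8 CPM in WT PAX6+ and at 11.1, 11.4, 9.12 and 12.3 in KO PAX6+. TBR2+ libraries held 5.9, 4.95, 4.24 and 5.75 CPM in WT and 7.87, 12.1, 12 and 9.02 in KO. The genotypes were separate in both populations, and the KO groups of the 2 populations overlapped each other. It fell by 0.64 in PAX6+ and rose by 0.96 in TBR2+ (difference 1.60, SE 0.25, adjusted p = 0.001349). In WT its level was lower in TBR2+ than in PAX6+ (log2 -1.71), and in KO the difference of -0.11 did not pass (adjusted p = 0.6189). Chst2, for a sulfotransferase that acts on N-acetylglucosamine, was at 36.2, 37.4, 33.7 and 36 CPM in WT PAX6+ and at 20.8, 26.4, 25 and 25.6 in KO PAX6+. The level in TBR2+ was 62.6, 86.4, 56.8 and 75.7 CPM in WT and 99.3, 109, 90.4 and 116 in KO. The genotypes did not overlap in either population. It fell by 0.55 and rose by 0.56 (difference 1.11, SE 0.18, adjusted p = 0.0016).

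In 9 genes called in both populations the direction was the same and the size differed: 8 rose and 1 fell. Gabra2, for the alpha-2 subunit of the GABA-A receptor, was at 2.24, 7.31, 2.66 and 4.17 CPM in WT PAX6+ and at 67.8, 81.6, 73.4 and 86.7 in KO PAX6+. In TBR2+ it was at 15, 11.4, 11.9 and 20.1 CPM in WT and at 43.6, 43.3, 57.4 and 52.3 in KO. The genotypes were separate in both populations. The log2 fold change was 4.22 (SE 0.25) and 1.74 (SE 0.23), a difference of -2.48 (SE 0.34, adjusted p = 0.0003046). The order of the populations turned: WT TBR2+ was above WT PAX6+ (log2 1.82), and KO TBR2+ was below KO PAX6+ (-0.66, adjusted p = 0.01014).

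Pid1 rose by 2.55 and 0.91 (difference -1.64, SE 0.30), Itga6, for a laminin-binding integrin subunit, by 1.77 and 0.96 (-0.81, SE 0.15), and the zinc finger gene Zfp704 by 1.25 and 0.55 (-0.70, SE 0.14). Kremen1, for a receptor of the Wnt inhibitors of the Dickkopf family, rose by 1.89 and 0.82 (-1.07, SE 0.24). Daam2, for a formin that acts in Wnt signalling, rose by 0.75 in PAX6+ and 2.41 in TBR2+ (1.66, SE 0.33; not called in limma, adjusted p = 0.0778), the reverse order. Veph1, named for its expression in the ventricular zone, was at 76.5, 58.3, 82.9 and 72.7 CPM in WT PAX6+ and at 215, 156, 165 and 192 in KO PAX6+. TBR2+ libraries held 6.05, 4.1, 6.16 and 2.54 CPM in WT and 36.7, 21.6, 31.8 and 23.5 in KO. Both populations were separate by genotype, with log2 fold changes of 1.32 and 2.59 (difference 1.27, SE 0.29, adjusted p = 0.0384). The call of Veph1 was lost in 9 of the 16 fits without a library (adjusted p of up to 0.114) and that of Kremen1 in 8 (up to 0.1147). In limma both were lost (adjusted p = 0.1465 for Veph1 and 0.1023 for Kremen1). With all 24 libraries in 1 fit Veph1 was not called either (0.05389). Palmd, for a paralemmin family protein, was the gene that fell in both, by 2.29 in PAX6+ and 0.93 in TBR2+ (1.36, SE 0.26).

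Genes that changed strongly in both populations without an interaction call give the other side of the comparison. Pdzrn3, for a RING-type ubiquitin ligase, was at 25.8, 23, 35 and 26 CPM in WT PAX6+ and at 165, 130, 137 and 143 in KO PAX6+. The level in TBR2+ was 96.2, 107, 85.5 and 116 CPM in WT and 391, 405, 444 and 459 in KO. The genotypes were far apart in both. The log2 fold changes were 2.38 and 2.07, and their difference of -0.31 had a 95% interval of -0.67 to 0.05. Gm26911 lies within the span of Pdzrn3 on the opposite strand, had 2.22 and 1.80, and may share its reads.

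Tmeff2 had log2 fold changes of 1.92 and 1.80 (interval of the difference -0.83 to 0.60), the adhesion gene Dscaml1 -2.24 and -1.96 (-0.36 to 0.91), and the metalloprotease gene Adamts20 1.75 and 2.31 (-0.07 to 1.18). Smoc1, for a secreted calcium-binding protein, fell by 2.81 and 3.50 (-1.84 to 0.47). For Fam78b (-1.28 to -0.30) and Fosl2 (0.08 to 1.27) the interval, which is not adjusted for the number of genes, left out 0 while the adjusted p of 0.1941 and 0.533 did not pass. Fam78b passed without a filter on low counts (adjusted p = 0.01424) and with the replicate block (0.01457). These intervals leave room for differences of the size called elsewhere, so an equal response was not shown. Mecom, for the closest relative of PRDM16, was at 1.7, 1.34, 0.952 and 1.46 CPM in WT PAX6+ and at 19.4, 17, 21.5 and 18.7 in KO PAX6+. In TBR2+ it was at 0, 0.171, 0.385 and 0.169 CPM in WT and at 1.89, 0.684, 0.982 and 0.644 in KO. The genotypes were separate in both populations, with log2 fold changes of 3.82 and 2.53, and the difference of -1.30 had an interval of -3.15 to 0.55 at the few reads of TBR2+.

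Over 32 gene lists, 15 of 425 tested genes (3.53%) had an interaction call, 5 higher and 10 lower, and 22 lists held none. The lists were written with earlier results of these data known, and they include genes picked for that reason, so their share is not set against the 0.612% of all genes. Of 21 receptor genes for GABA and glutamate, Gabra2 and Shisa9 were lower and Gria3 higher. Gabrg1 rose in both populations (3.97 and 2.12), and its interaction of -1.85 (SE 0.62) did not pass. Of 12 upper-layer genes, Cux2, a homeobox gene of upper-layer neurons and their progenitors, was called lower. It was at 15.1, 15.3, 10.9 and 7.71 CPM in WT PAX6+ and at 19.6, 19.2, 25.6 and 12.6 in KO PAX6+, and at 89.2, 89.4, 109 and 90.6 in WT TBR2+ and 55.7, 62.6, 75.4 and 56.8 in KO TBR2+. The genotypes overlapped in PAX6+ and were separate in TBR2+. Neither change passed alone (0.64 and -0.60), and their difference did (-1.24, SE 0.27, adjusted p = 0.02971). The call was lost in 8 of the 16 fits without a library, with an adjusted p of up to 0.08425. With all 24 libraries in 1 fit it was lost as well (adjusted p = 0.271).

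None of 15 deep-layer neuron genes had an interaction call, and 14 of the 15 estimates were above 0 with a median of 0.54, beside 0.002 over all genes tested. Calls depended on the setting: 5 were higher with the replicate block, 3 without a filter on low counts and 1 without KO TBR2+ replicate 1. Over all genes tested these settings called 175 of 14548, 203 of 27523 and 67 of 14861 higher. In TBR2+ cells 4 of the 15 rose (1.18% of all genes tested): Sox5 (0.79), Fezf2 (0.71), Lmo3 (1.37) and Nr4a2 (0.63). Their PAX6+ values of 0.22, 0.18, 0.51 and 0.22 did not pass, and neither did their interactions of 0.57, 0.53, 0.86 and 0.41. Other neuronal genes lay above 0 in TBR2+ as well, where all genes tested had a median of 0.003 and 1.18% were called higher. These were 15 of 17 pan-neuronal genes (median 0.33, no call) and 19 of 21 receptor genes (median 0.69, 3 calls). In PAX6+, 10 of the 17 and 11 of the 21 lay below 0, with medians of -0.13 and -0.05. Their part in the deep-layer values was not tested. Of 22 cell cycle genes 19 had an interaction below 0, with a median of -0.25 and no call. The median log2 fold change of these genes was -0.16 in PAX6+ and -0.46 in TBR2+. In TBR2+ only Mcm5, for a subunit of the replicative helicase, fell (-0.73, adjusted p = 0.03155), beside 0.619% of all genes tested.

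All 9 Cajal-Retzius genes had an interaction above 0, with a median of 1.84 and no call, and this rested on 1 library. Without a filter on low counts 6 of them were called higher, and with the replicate block 5. Over all genes tested these settings called 203 of 27523 and 175 of 14548 higher. Without WT PAX6+ replicate 3 the median was 0.38, with 5 above 0 and 4 below. The 4 fixed markers (Reln, Trp73, Calb2, Lhx5) summed to 31.3 to 282 CPM in WT PAX6+ and 15.2 to 91.7 in KO PAX6+, and to 105 to 506 and 344 to 504 in TBR2+. The median of the deep-layer genes stayed between 0.46 and 0.68, and that of the cell cycle genes between -0.42 and -0.17, when any library was left out.

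**Figure D5:**
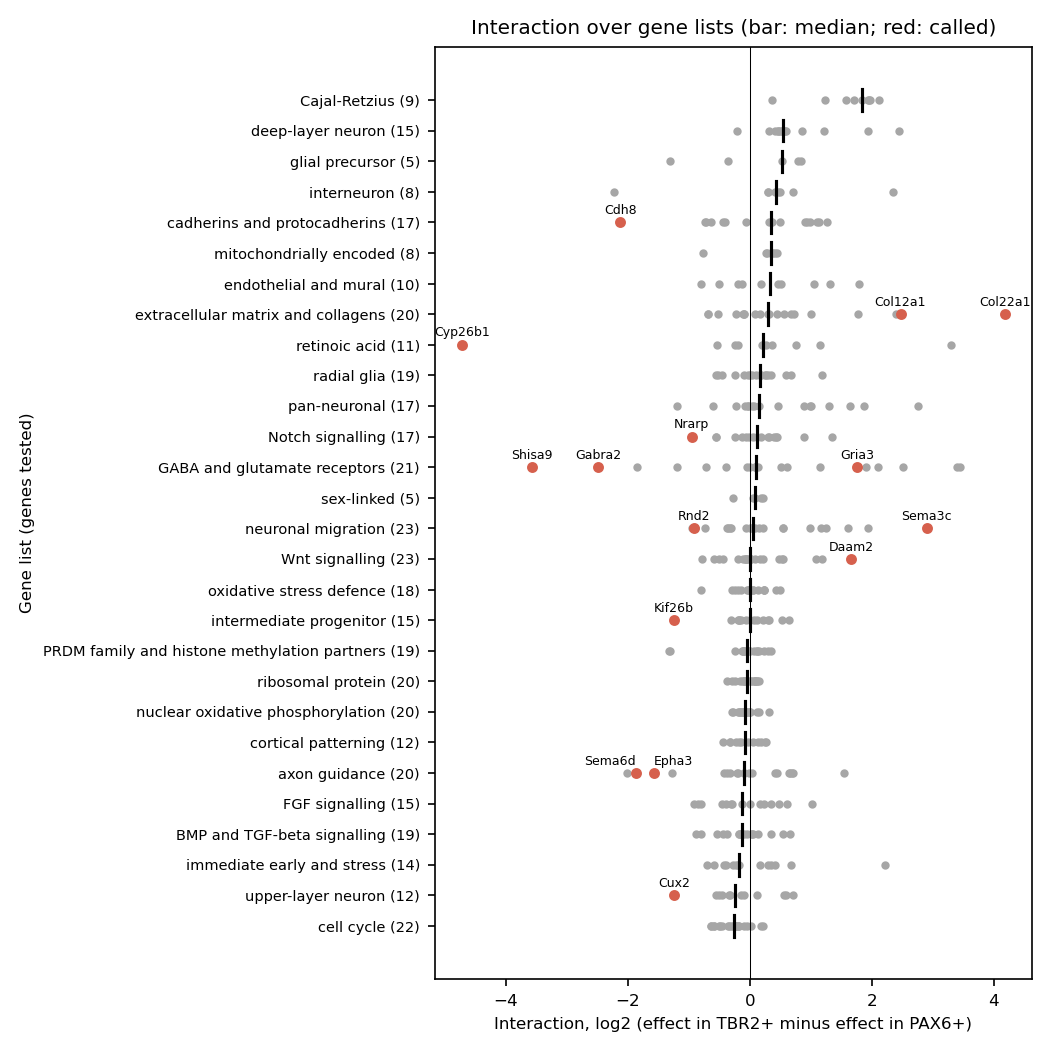
Interaction on the log2 scale (x axis) of each tested gene of the 28 lists with at least 5 tested genes, with the median as a black bar; called genes are red and named. No list holds more than 3 called genes; the Cajal-Retzius median of 1.84 falls to 0.38 without WT PAX6+ replicate 3.

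Some interaction genes were neighbours. Within a window of 500000 bases, set after the data were seen, 16 of the 88 placed interaction genes formed 12 pairs, and in all 12 the interactions had the same sign. Pairs were not counted over all genes tested, so neither count shows clustering. Pairs within a cluster or with overlapping spans are not independent. On chromosome 8, Cdh8 (-2.12), Gm15681 (-2.83), Gm15680 (-2.77) and A330008L17Rik (-1.81) lie in 1 cluster and make up 6 of the pairs. The potassium channel genes Kcna3 (-1.15) and Kcna2 (-2.60) lie 63076 bases apart on chromosome 3 with 1 tested gene between them. Cpeb4 (-0.85) and Nsg2 (-0.76) on chromosome 11, and Fam107b (-0.82) and Frmd4a (-1.07) on chromosome 2, have no tested gene between them. Gene spans overlapped in 6 pairs, among them Veph1 (1.27) and Ptx3 (1.20) on opposite strands, so reads of intronic or antisense origin may be shared. Of the 89 genes, 13 had exons that overlap exons of another gene, and in 4 the overlap took over 10% of the exon length: Zfp704, Gm15601, Rnd2 and Atcay.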

How the data were processed

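RNA was taken from sorted cells with a RecoverAll kit, amplified by single primer isothermal amplification and made into libraries with Ovation kits, per the labels' protocols. Reads carry no molecular identifiers, so the technical error may exceed the counting error. Per the submitters' processing notes, the authors used STAR, featureCounts, cutadapt, FastQC and DESeq2 with the build mm10. For the annotation release and the strandedness of counting, values are not given in the sources used. The deposited tables hold raw counts per Ensembl gene, with 2 lanes per library, which were summed and joined on the gene identifier. The deposited normalized tables hold signal values, from which whole reads were recovered as an alternative. In PAX6+ these reads were the raw counts; they were 1.47 (WT) and 1.48 (KO) times the raw counts in TBR2+, so the deposited tables differ in that population alone of those compared here. With the recovered reads 94 interaction genes were called. Of 39017 genes, 37693 had a name and position in GENCODE M21 (GRCm38), and 1324 identifiers, with 0.199% to 0.353% of the counts of a library, had no match.

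Groups and replicate numbers came from the titles, and 4 group means were fitted to the 16 libraries by edgeR 4.0.16 under R 4.3.3 (glmQLFit and glmQLFTest, two-sided, after filterByExpr and TMM scaling). P-values were adjusted by Benjamini-Hochberg over 14548 genes, with calls under 0.05. Adjusted p-values come from edgeR unless the sentence names limma or DESeq2. The SE of a log2 value is its size over the square root of F. Pairs of libraries of 1 group differed by a chi-square of 6.63 to 45.5 per degree of freedom and lanes of 1 library by 0.976 to 1.02, so no library was taken for a copy. Replicates are called biological, but nothing ties them to embryos, so p-values measure the spread between these libraries.

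The comparison, gene lists and tests were chosen with earlier results of these data known. Named genes were interaction calls with a mean of at least 5 CPM in a group. They were the 12 largest in each direction that were also called in a population, all 3 opposite calls, up to 8 same-direction calls with the smallest interaction p, and called list members. Also named were 8 genes called in both populations without an interaction call, and Prdm16, Mecom, Pax6, Eomes and Emx1. Other genes are named as neighbours, list members, linear-scale reversals or members of small classes, after their values were seen. Alternatives were DESeq2 1.42.0, its size factors in edgeR, limma 3.58.1 with voom, other filters, no mitochondrial genes, all 24 libraries, a replicate block, recovered reads, each library left out and a linear scale. On simulated data with 14548 genes, the interaction test recovered 60% and 80% of genes with a true log2 difference of -2 and 2. It recovered 50% and 52% of those with -1 and 1, with 8 false calls among 129. Each size and direction had 50 genes, the effect was placed in KO TBR2+ alone, and libraries were drawn independently.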

Additional observations from a re-analysis of the deposited data

Results flagged for a closer look

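The interaction itself, a test of whether the knockout effect differed between the populations, called 89 genes. The 3 with calls in opposite directions were Pdgfc (1.60), Bmper (-1.53) and Chst2 (1.11); the other calls are given above.

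Of 212 groups of 4 library values examined, most of them of the named genes and 8 of library totals and mitochondrial shares, 16 held a library far from the other 3 by Dixon's criterion at the 95% level, where chance gives about 1 in 20. In KO TBR2+, replicate 1 stood apart for Kif26b (159 CPM, others 104 to 113), Sema3c (36.4, others 61.1 to 63.3) and Cdh8 (66.4, others 103 to 106), and replicate 4 for Kcna2 (5.31, others 3.46 to 3.73). In WT TBR2+, replicate 4 stood apart for Gria3 (43.4, others 27.7 to 29.8) and Fosl2 (24.7, others 11.3 to 13.1). Replicate 3 did so for Prdm16 (83.4, others 48.1 to 52.4) and Cux2 (109, others 89.2 to 90.6), and replicate 1 for Rassf10 (1.12, others 0.338 to 0.385) and Rgs17 (4.3, others 6.49 to 6.93). In KO PAX6+, replicate 3 was high for Kcna2 (10.4, others 3.24 to 4.06) and Palmd (9.48, others 4.88 to 5.63). Replicate 4 was low for Mme (4.8, others 5.99 to 6.16) and Emx1 (11.8, others 18.8 to 19.8), and replicate 2 for Adamts18 (11.1, others 16.6 to 17.5). In WT PAX6+, replicate 3 was high for Ndrg1 (7.17, others 4.12 to 4.58).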

How the results depend on the processing

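The count of 89 interaction genes became 160 in DESeq2, 329 with no filter on low counts and 323 with a replicate block within each population, and ran from 71 to 137 when a library was left out, the highest without KO TBR2+ replicate 1. The other settings gave 78 to 94. The cause was not tested. With the block the split was 175 higher and 148 lower, and all 89 genes were among the 323. The check of the replicate numbers gave correlations of 0.17 to 0.356 between same-numbered libraries in PAX6+ and of 0.0462 to 0.309 in TBR2+, where 2 of 4 stayed under 0.1. The criterion for pairing, over 0.1 for every number, was thus met in PAX6+ and missed in TBR2+, and each of the 8 WT libraries correlated best with its own number. The main fit has no term for pairing in either population, so the 89 calls and their split leave it out. The genotype effect in PAX6+ (496 genes) gave 755 with no filter and 894 with the block. That in TBR2+ (262) gave 594 and 735, and 123 to 423 with a library left out: leaving out WT replicate 1 gave 160 and WT replicate 3 gave 123, while for KO replicates 1, 3 and 4 the counts were 423, 171 and 162. The 15 list genes became 57 with no filter, 54 with the block and 13 to 23 with a library left out, the most without KO TBR2+ replicate 1. Of 38 named interaction genes, 31 stayed called without each library and 28 in every fit that tested them; Cckar, Cyp26b1, Rassf10 and Col22a1 had no value in 1 of the 9 other fits, that with a minimum of 1 CPM in every group. Signs turned only in genes with no call when a library was left out (over these fits Tmeff2 ran from -0.24 to 0.08, with 0.04 in another, Pax6 from -0.17 to 0.11, Emx1 from -0.03 to 0.19 and Dscaml1 from -0.03 to 0.42) and on the linear scale (Sema6d 67.3, Veph1 -85.6, Palmd -15.9, Cckar 2.74, Epha3 9.07 and Daam2 -13.4 CPM). Of these linear values, those of Cckar and Epha3 were smaller than their SE of 8.96 and 25.8, and that of Sema6d was little above its SE of 52.2. With 4 libraries a group, the simulated recovery at a log2 difference of 1 was 50% to 52%. The simulation had no effect in PAX6+ and no pairing, so it does not give the share missed in these data.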
